A study of Homo sapiens with 6 samples.

Results

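The 38 genes described here encode the cyclins, kinases, checkpoint proteins, kinetochore parts, motors and proteases that carry a cell through mitosis. They were found as the rows of the deposited count table whose gene symbol equalled a name on the list, and all 38 were present among the 59653 genes of that table. RNA-seq had been done on SK-OV3, a line of human ovarian cancer cells labelled wildtype in genotype, in 2 groups taken 48 h after transfection: siPVT1 (n = 3), which received pooled siRNAs against the long non-coding RNA PVT1, and siControl (n = 3), which received a scrambled pool. The series holds 1 cell line and 1 siRNA pool for each group. The sources used here do not say whether the replicates were separate cultures, so the p-values measure the spread between these libraries, which may be technical.

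Mitosis begins when CDK1 bound to a B-type cyclin is switched on by CDC25 phosphatases. Chromosomes then attach through their kinetochores to the microtubules of the spindle, while the spindle checkpoint holds back the anaphase-promoting complex (APC/C) until every chromosome is attached. The APC/C then marks cyclin B and securin for destruction, separase cuts the cohesin that joins sister chromatids, and a contractile ring divides the cell. Many of these genes are transcribed mainly in G2 and M phase, when the MuvB complex joins B-MYB (MYBL2) and FOXM1 at their promoters, and are held down in resting cells by the DREAM complex. MuvB binds a short element called the CHR (cell cycle genes homology region), and NF-Y binds the CCAAT boxes that often lie just upstream of it. Cells that divide fast, such as a cancer line in culture, are known to hold these transcripts at substantial levels.

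To show the sequence that many of these genes share, the RefSeq promoter table of GRCh38.p14 was searched for the CHR (TTTGAA, on the other strand TTCAAA) and the CCAAT box (CCAAT, on the other strand ATTGG), over 250 bases before each transcription start and 50 from the start on. The table held 41 promoters of 31 of the 38 genes; UBE2C, AURKA, BIRC5, TPX2, TTK, BUB3 and FOXM1 were not matched. The 8 windows printed here show the 80 bases before the start, 5′ to 3′ on the strand of the gene, for every matched gene with a CHR starting 40 to 20 bases before the start and a CCAAT box within those 80 bases. Capitals mark CHR and CCAAT matches on either strand. In HMMR, CCAAT overlaps ATTGG, and in MKI67 a CHR overlaps ATTGG.
CCNB2, chr15:59105066-59105145, plus strand: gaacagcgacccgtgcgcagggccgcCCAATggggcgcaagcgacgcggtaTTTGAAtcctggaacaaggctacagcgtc
PLK1, chr16:23678809-23678888, plus strand: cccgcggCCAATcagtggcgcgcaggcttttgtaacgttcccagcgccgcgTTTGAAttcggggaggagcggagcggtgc
KIF11, chr10:92593050-92593129, plus strand: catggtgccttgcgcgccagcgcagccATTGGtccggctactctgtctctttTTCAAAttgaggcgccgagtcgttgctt
KIF4A, chrX:70290024-70290103, plus strand: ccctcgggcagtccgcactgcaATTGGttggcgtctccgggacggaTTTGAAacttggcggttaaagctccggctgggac
HMMR, chr5:163460552-163460631, plus strand: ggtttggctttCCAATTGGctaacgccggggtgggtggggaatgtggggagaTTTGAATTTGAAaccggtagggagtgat
PRC1, chr15:90994536-90994615, minus strand: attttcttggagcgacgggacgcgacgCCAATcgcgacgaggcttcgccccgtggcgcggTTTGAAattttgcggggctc
ESPL1, chr12:53268219-53268298, plus strand: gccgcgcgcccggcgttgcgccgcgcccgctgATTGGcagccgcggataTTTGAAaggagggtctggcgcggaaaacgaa
MKI67, chr10:128126424-128126503, minus strand: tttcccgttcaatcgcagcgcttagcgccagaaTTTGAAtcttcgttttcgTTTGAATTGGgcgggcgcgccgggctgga

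A CHR match was found in 25 of the 41 promoters (61.0%), against 15.2% of all 35116 promoters of the same length, and a CCAAT match in 30 (73.2%), against 34.6%. Counted by gene, 22 of 31 (71.0%) held a CHR and 25 (80.6%) a CCAAT box, compared with 14.2% and 43.1% of the 11862 tested genes that had a promoter in the table. Both motifs were found for 18 of the 31 genes (58.1%), against 7.73% of those tested genes. By position, 18 of the 34 CHR matches (52.9%) began in the 40 bases before the start, compared with 12% of the 6238 matches over all promoters. A match of letters is not a measured binding site, and no binding data were analysed here.

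**Figure D1:**
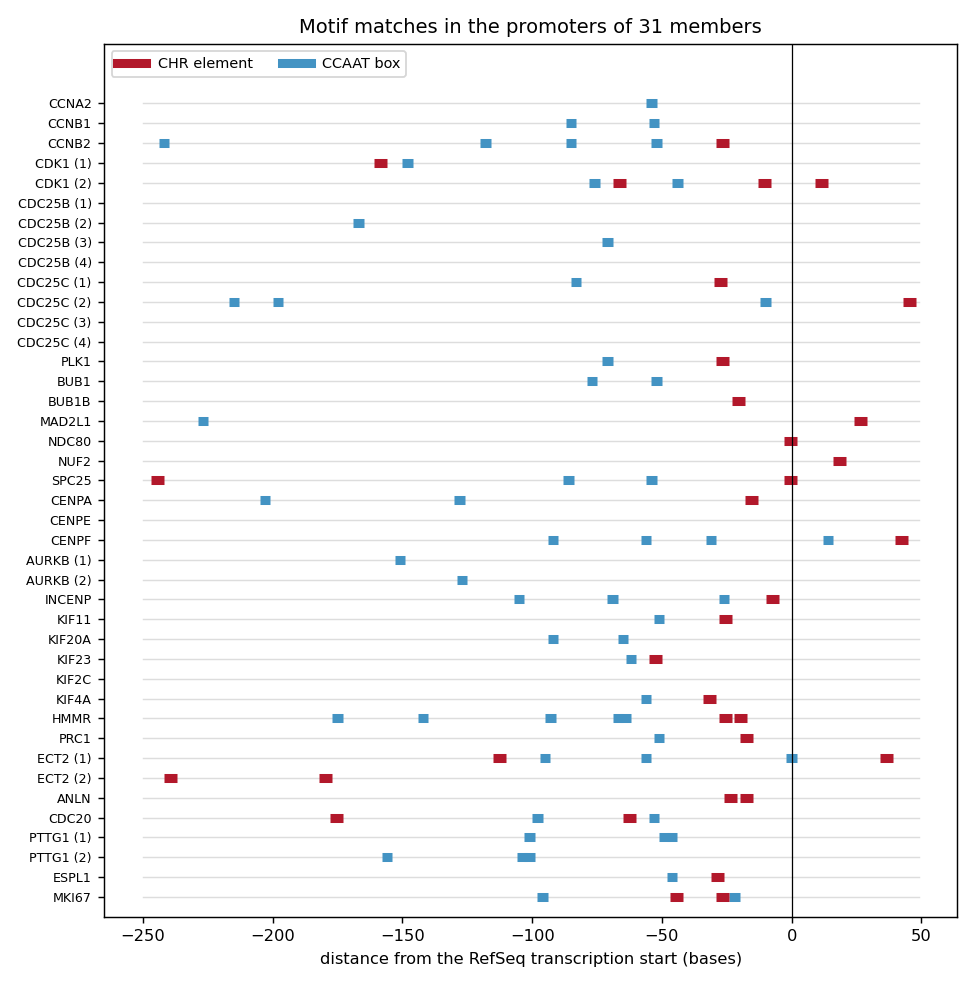
Matches to the CHR (red) and the CCAAT box (blue), on either strand, in the RefSeq promoters of 31 mitosis and spindle genes, 1 line per promoter, with the distance from the transcription start in bases on the x axis. Red marks cluster in the 40 bases before the start, where 18 of 34 CHR matches begin, and blue marks mostly lie upstream of them.

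The targeted RNA was checked first. PVT1 stood at 3298, 4090.5 and 3377 normalized counts in siControl replicates 1, 2 and 3 and at 2349.7, 2111 and 2062 in siPVT1 replicates 1, 2 and 3, where a normalized count is the deposited estimated count scaled by TMM to the mean library size. Every siPVT1 library lay below every siControl library, with a log2 change of -0.72 (SE 0.097, adjusted p = 0.000342 by edgeR's quasi-likelihood test; two-sided exact permutation p = 0.1, the smallest that 3 against 3 allows). The total count ranged from 28383171 to 35059576 per library, and the deepest library was siPVT1 replicate 3. Of 8 markers fixed for the line, ERBB2, PAX8, KRT7, KRT8 and KRT18 were each at 896 normalized counts or more in every library. ERBB2 was the lowest of these, at 896 to 1325. CD24 lay between 357 and 612, EPCAM between 41.3 and 127, and MUC1 at 9.83 or below. Of these 8, PAX8 (mean 2627 in siControl and 5254 in siPVT1), KRT8 (log2 change 0.32) and KRT18 (0.37) were higher in siPVT1, and ERBB2 (-0.43) and KRT7 (-0.51) were lower. Among 10 markers of immune, endothelial, stromal and liver cells, PTPRC, CD3E, COL3A1 and DCN had at most 3 counts in any library. The summed level of those 10 was 751 to 796 in siControl and 1432 to 1823 in siPVT1. CD68 was the highest of them in every library, at 547.6 to 890.9 normalized counts. It did not pass edgeR's test (log2 change 0.30, adjusted p = 0.111). PECAM1 (log2 change 2.99), COL1A1 (2.15) and VWF (1.66) were higher in siPVT1. CD14, at 9.52 or below in every library, was lower, and ALB was at 21.2 or below. The part of the higher summed level in the results was not tested.

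In siPVT1, most mitosis and spindle genes were higher. Of the 38, 33 passed edgeR's test (Benjamini-Hochberg adjusted p under 0.05 over the 19008 genes tested) as higher, 2 as lower and 3 did not pass. Among all genes tested 57.9% were called, 29.5% as higher and 28.4% as lower. The share of the 38 that was higher, 86.8%, stood well above that background, and the share that was lower, 5.26%, well below it. The 38 were chosen with earlier results of these data known, so this contrast is a description. The background also holds genes with as few as 5 normalized counts in 3 libraries, and none matched for level was compared. The median log2 change of the 38 was 0.69, from -0.65 for CDC25B to 1.32 for CDC25C, against 0.0014 over all genes tested. With a log2 change of at least 1 required as well, 5 of the 38 were higher (CDC25C, NUF2, CENPF, KIF20A and ANLN). That share is close to the background of 11.8%, so at these thresholds the 38 did not stand out. Without siPVT1 replicate 3 this held for CDC25C and NUF2 alone, under scaling by the total count for CDC25C alone, and by DESeq2 for 4 genes. No gene of the 38 was lower past both thresholds by edgeR (0, also 0 at an unadjusted p under 0.05 and 0 by DESeq2; background 9.64%). All siPVT1 libraries lay above all siControl libraries for 33 of the 38 (33.2% of all genes tested) and below them for 2 (32.3%). In bulk RNA, a larger share of cells in G2 and M phase and more of these transcripts per cell cannot be told apart.

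**Figure D2:**
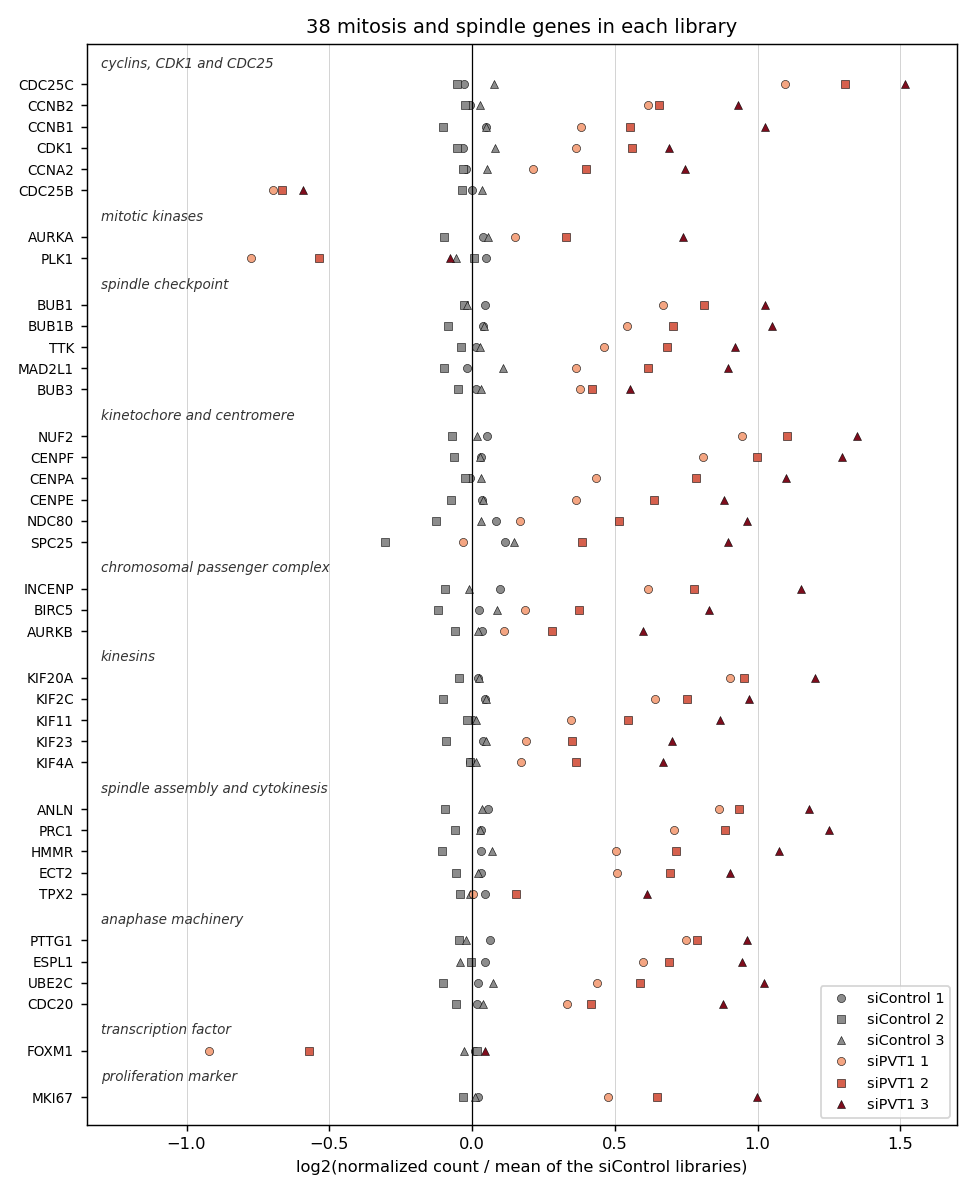
Each of the 38 genes in each library, as log2 of its normalized count over the mean of the 3 siControl libraries (x axis), grouped by role; grey marks are siControl and coloured marks siPVT1, with circles, squares and triangles for replicates 1, 2 and 3. The siPVT1 marks lie to the right of the grey marks for 33 genes and to the left for CDC25B and PLK1, and the triangle of siPVT1 replicate 3 is the rightmost siPVT1 mark in every row.

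The entry into mitosis was represented by 3 cyclins, their kinase and 2 of the phosphatases that activate it. CDC25C, the phosphatase that removes the inhibitory phosphates from CDK1, showed the largest change of the 38. Its normalized counts were 294, 289 and 316 in siControl and 641, 741 and 857 in siPVT1, so that even the lowest siPVT1 library stood far above the siControl range. This was a log2 change of 1.32 (SE 0.12, adjusted p = 3.76e-05), and the gene lies at chr5:138285269-138338355 on the minus strand of GRCh38, with 14 exons in its MANE Select transcript. Cyclin B2 (CCNB2) stood at 1157 ± 21.4 in siControl (mean ± SD, n = 3, as for all siControl means below) and at 1772, 1821 and 2208 in siPVT1 replicates 1, 2 and 3, a log2 change of 0.74. Cyclin B1 (CCNB1), the main partner of CDK1 in mitosis, was at 3624 ± 214 in siControl and at 4721, 5323 and 7379.8 in siPVT1 (log2 change 0.68). CDK1 itself, the kinase that drives cells into mitosis, was at 2649 ± 132 and at 3411, 3907 and 4273 (log2 change 0.55). Cyclin A2 (CCNA2), which acts from S phase to early mitosis, rose least of the 5, from 1861 ± 58.0 to 2157, 2452 and 3123, with a log2 change of 0.47 (adjusted p = 0.0118) that was 0.29 without siPVT1 replicate 3 and did not pass the test under scaling by the total count alone (adjusted p = 0.0538).

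CDC25B, the phosphatase thought to start the activation of CDK1 at the centrosome, moved the other way. It is singled out here, as are PLK1 and FOXM1 below, after its values had been seen. Its normalized counts were 1732, 1690.1 and 1773 in siControl and 1068, 1090.4 and 1148 in siPVT1, and the 2 groups did not overlap. The log2 change was -0.65 (SE 0.062, adjusted p = 5.43e-05), and the siPVT1 libraries differed from each other by less than for any other gene of the 38 (replicate 3 over replicate 1, 1.08). CDC25B and CDC25C, 2 phosphatases with the same substrate, thus changed in opposite directions in the same libraries. None of the 4 CDC25B promoters in the table held a CHR, whereas 2 of the 4 CDC25C promoters did. Of the 28 matched genes called higher, 20 held a CHR match, and KIF20A was among those that did not. Only 2 matched genes were called lower, CDC25B without a CHR match and PLK1 with one. These are too few to relate the motif to direction, which was not tested. Only the exact letters of the motif were searched, so other spellings of the CHR were not counted.

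The 2 kinases that control centrosomes and the early spindle also differed in direction. AURKA (Aurora A), which matures the centrosomes, stood at 3187, 2900.4 and 3229 in siControl and at 3444, 3897 and 5179 in siPVT1, with every siPVT1 library above the siControl ones. Its log2 change of 0.43 (SE 0.14, adjusted p = 0.0281) was one of the less stable: it no longer passed the test without siControl replicate 1, 2 or 3 or without siPVT1 replicate 2 (adjusted p from 0.0533 to 0.0992), nor under scaling by the total count (adjusted p = 0.110), and was 0.23 without siPVT1 replicate 3. PLK1, which helps to activate CDK1 and acts at centrosomes, kinetochores and in cytokinesis, was lower, at 1675, 1628 and 1559 in siControl and 947, 1119 and 1534 in siPVT1. The third siPVT1 value lay only just under the lowest siControl value. The log2 change was -0.43 (SE 0.16, adjusted p = 0.0429). This call was lost without siControl replicate 1, 2 or 3 or without siPVT1 replicate 1 or 2 (adjusted p from 0.0731 to 0.125), and without siPVT1 replicate 3 the log2 change was -0.67. The PLK1 promoter printed above holds the same pair of motifs as the other 7 windows, all of which belong to genes that were higher.

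FOXM1, a transcription factor that activates many G2 and M phase genes, did not pass edgeR's test. It stood at 3498, 3519.7 and 3409 normalized counts in siControl and at 1834, 2337 and 3587 in siPVT1. Replicates 1 and 2 were thus far below the siControl range while replicate 3 lay above it, which was the widest spread among siPVT1 libraries of any of the 38 (replicate 3 over replicate 1, 1.96). The log2 change was -0.42 (SE 0.21, adjusted p = 0.112). Without siPVT1 replicate 3 it was -0.75 (adjusted p = 5.02e-05) and without siPVT1 replicate 1 it was -0.24. FOXM1 also passed as lower by DESeq2 (adjusted p = 0.0499), under scaling by the total count (adjusted p = 0.0435) and with no filter on low counts (adjusted p = 0.0305). MYBL2, the gene of B-MYB and not one of the 38, was lower in siPVT1, with 1588, 1538 and 1576 in siControl and 445, 512 and 906 in siPVT1 (log2 change -1.33, SE 0.23, adjusted p = 0.00139).

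**Figure D3:**
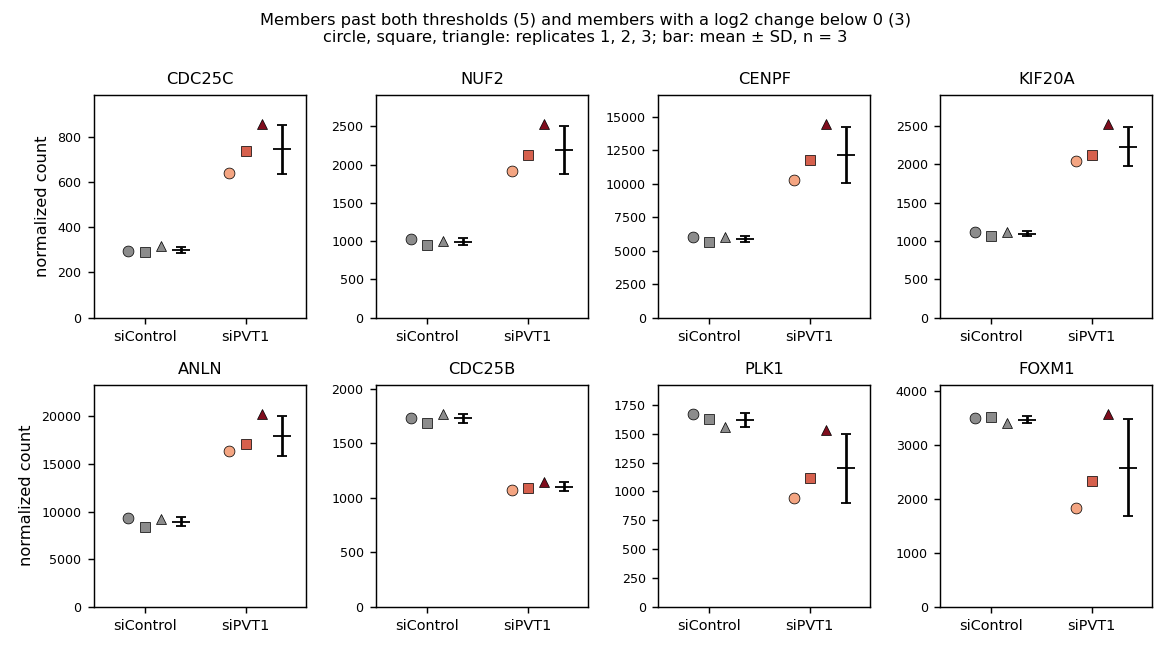
Normalized counts (y axes, each from 0) of the 5 genes past both thresholds, CDC25C, NUF2, CENPF, KIF20A and ANLN, and of the 3 with a log2 change below 0, CDC25B, PLK1 and FOXM1; each mark is 1 library and the bars give mean ± SD (n = 3). The groups are apart in the first 5 and in CDC25B, nearly touch in PLK1 at siPVT1 replicate 3, and overlap in FOXM1, where that replicate reached 3587.

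All 5 genes of the spindle checkpoint were higher, with log2 changes from 0.45 to 0.84. Over all genes tested 29.5% were called higher, the share beside which this count and those of the role groups below stand. These groups are small, and their genes were chosen with earlier results of these data known. BUB1, a kinase that recruits the other checkpoint proteins to kinetochores, had the smallest p-value of them. It was at 2371, 2258 and 2272 in siControl and at 3659, 4037 and 4686 in siPVT1, a log2 change of 0.84 (SE 0.092, adjusted p = 0.000109). BUB1B encodes BUBR1, a part of the mitotic checkpoint complex that blocks CDC20, and was at 1697 ± 82.9 in siControl and 2469, 2761 and 3513 in siPVT1 (log2 change 0.78). MAD2L1 (MAD2), which seizes CDC20 at unattached kinetochores, was at 1181 ± 85.4 and 1519, 1812 and 2197 (log2 change 0.64). TTK (MPS1), the kinase at the top of the checkpoint, was at 1593 ± 38.4 and 2194, 2559 and 3015 (log2 change 0.70). BUB3, the adaptor that brings BUB1 and BUBR1 to kinetochores, changed least, from 5030.1 ± 144 to 6538, 6727 and 7384 (log2 change 0.45, adjusted p = 0.000484). These calls held without any one library and under scaling by the total count.

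Of the 6 kinetochore and centromere genes, 5 were higher. NUF2, a subunit of the NDC80 complex that grips microtubules, rose most. Its normalized counts were 1028, 944 and 1002 in siControl and 1911, 2129.5 and 2526 in siPVT1, a log2 change of 1.14 (SE 0.10, adjusted p = 4.52e-05); it lies at chr1:163266576-163355764 on the plus strand. The large kinetochore protein CENPF, at chr1:214603185-214664574 on the plus strand, was at 6019, 5638 and 6001 in siControl and 10306, 11765 and 14453 in siPVT1 (log2 change 1.05, SE 0.12, adjusted p = 0.000116). For both genes even siPVT1 replicate 1, the lowest of its group, stood well above the siControl range. CENPA, the histone H3 variant that marks the centromere, was at 251 ± 4.79 in siControl and 339, 432 and 537 in siPVT1 (log2 change 0.80). The kinetochore motor CENPE, which moves chromosomes to the spindle equator, was at 2259.7 ± 99.6 and 2909, 3514 and 4166 (log2 change 0.64). The 2 other NDC80 complex subunits on the list moved less surely than NUF2. NDC80 was at 1229.7 ± 92.4 and 1382, 1757 and 2397 (log2 change 0.59, adjusted p = 0.0214); its call was lost without siControl replicate 2 or 3 or siPVT1 replicate 2 (adjusted p from 0.0522 to 0.0828) and under scaling by the total count (adjusted p = 0.0609). SPC25 was at 409, 305 and 418 in siControl and 369, 493 and 702 in siPVT1, where replicate 1 fell inside the siControl range. Its log2 change of 0.47 did not pass the test (SE 0.23, adjusted p = 0.109), except without siPVT1 replicate 1 (0.65, adjusted p = 0.0147) or with no filter on low counts (adjusted p = 0.0390). Without siPVT1 replicate 3, the log2 changes of NDC80 and SPC25 were 0.34 and 0.18.

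The chromosomal passenger complex corrects wrong attachments and later guides cytokinesis, and its 3 genes on the list were higher. INCENP, its scaffold, was at 1052, 921 and 976 in siControl and 1507, 1686 and 2184 in siPVT1, a log2 change of 0.87 (SE 0.13, adjusted p = 0.000731). Survivin (BIRC5), which places the complex at centromeres, was at 1847 ± 134 in siControl and 2099, 2395 and 3281 in siPVT1 (log2 change 0.49, adjusted p = 0.0240). AURKB, its kinase Aurora B, was at 982 ± 34.5 and 1061, 1191 and 1486, with the smallest log2 change of any gene of the 38 called higher (0.34, adjusted p = 0.0356). The calls of the latter pair were the less firm ones. BIRC5 did not pass the test without siControl replicate 1 or 2 (adjusted p of 0.0638 and 0.0903), and AURKB did not without siControl replicate 1, 2 or 3 or siPVT1 replicate 2 (adjusted p from 0.0727 to 0.110). Under scaling by the total count neither passed (adjusted p of 0.0814 and 0.180), and without siPVT1 replicate 3 their log2 changes were 0.27 and 0.18.

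All 5 kinesins, motors that build the spindle and the midzone, were higher. KIF20A (MKLP2), which carries the passenger complex to the midzone in anaphase, rose past both thresholds. It lies at chr5:138178719-138187723 on the plus strand and was at 1112, 1061 and 1114 in siControl and 2048, 2119 and 2521 in siPVT1 (log2 change 1.03, SE 0.089, adjusted p = 3.37e-05), the smallest adjusted p of the 38. KIF2C (MCAK), which takes apart microtubules at kinetochores, was at 1868 ± 109 in siControl and 2912, 3149 and 3661 in siPVT1 (log2 change 0.79). KIF11 (Eg5), which pushes the spindle poles apart, was at 2899.6 ± 30.2 and 3684, 4231 and 5289 (log2 change 0.60). The 2 with the smallest changes both act in the midzone, as does KIF20A, which changed most of the 5. KIF23 (MKLP1), the motor of centralspindlin, was at 2368 ± 128 and 2699, 3017 and 3849 (log2 change 0.43, adjusted p = 0.0171). The chromokinesin KIF4A was at 1238 ± 10.7 and 1392, 1591 and 1968 (log2 change 0.42, adjusted p = 0.0157). KIF23 lost its call without siControl replicate 2 (adjusted p = 0.0678) and KIF4A without siControl replicate 1 or 2 (0.0540 and 0.0527), and both did under scaling by the total count (adjusted p of 0.0746 and 0.0832). Without siPVT1 replicate 3 their log2 changes were 0.26 and 0.25.

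Among 5 genes of spindle assembly and cytokinesis, 4 were higher. ANLN (anillin), which organises the contractile ring and lies at chr7:36389821-36453791 on the plus strand, was at 9308, 8382 and 9176 in siControl and 16319, 17134 and 20291 in siPVT1. Its log2 change was 1.0 (SE 0.091, adjusted p = 4.35e-05), at the edge of the fold threshold, and 0.99 by DESeq2. PRC1, which bundles the microtubules of the midzone and whose promoter is printed above, was at 2578 ± 91.5 in siControl and 4205, 4764 and 6125 in siPVT1 (log2 change 0.97). HMMR, a microtubule-binding protein of the spindle poles, was at 2143 ± 136 and 3036, 3514 and 4517 (log2 change 0.78). ECT2, the exchange factor that switches on RhoA for the cleavage furrow, was at 5443 ± 175 and 7746, 8796 and 10184 (log2 change 0.71). TPX2, which activates Aurora A and nucleates spindle microtubules, had the smallest absolute log2 change of the 38. It was at 7218, 6796 and 6958 in siControl and 7003, 7784 and 10685 in siPVT1, so that only replicates 2 and 3 lay above the siControl range. The change of 0.28 did not pass the test (SE 0.14, adjusted p = 0.121); it passed without siPVT1 replicate 1 (0.39, adjusted p = 0.0250) and was 0.06 without siPVT1 replicate 3.

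The 4 genes of the anaphase machinery were all higher. PTTG1 (securin), which holds separase inactive until anaphase, was at 1845, 1709 and 1738 in siControl and 2968, 3047 and 3436 in siPVT1, a log2 change of 0.84 (SE 0.074, adjusted p = 3.84e-05). ESPL1 (separase), the protease that securin inhibits, was at 964 ± 30.3 in siControl and 1459, 1555 and 1854 in siPVT1 (log2 change 0.75). Both the inhibitor and its protease were thus higher. UBE2C, the ubiquitin-conjugating enzyme of the APC/C, was at 1939 ± 121 and 2628, 2912 and 3944 (log2 change 0.71). CDC20, the activator that brings substrates to the APC/C, was at 3622 ± 124 and 4561, 4828 and 6657 (log2 change 0.56, and 0.36 without siPVT1 replicate 3). The processed copy CDC20P1 was counted apart, at 174 to 206 in siControl and 236 to 361 in siPVT1, so the split of reads between the 2 is uncertain. It was the only 1 of 15 copies and antisense genes looked up to exceed 25 normalized counts. The proliferation marker MKI67 (Ki-67), which coats mitotic chromosomes, stood at 11572, 11149 and 11469 in siControl and 15846, 17869.9 and 22769 in siPVT1 (log2 change 0.72, SE 0.12, adjusted p = 0.00112).

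The siPVT1 libraries were not alike for these genes. In all 38 of 38, replicate 3 was the highest of the siPVT1 libraries and replicate 1 the lowest, whereas replicate 3 was highest for 41.3% and replicate 1 lowest for 37.9% of all genes tested. Both together held for 28.9% of all genes tested. The same order was not particular to the 38: it held for 91 of 100 other mitotic genes and 20 of 21 S phase entry genes, lists described below. Within the 38 it held also for CDC25B, PLK1 and FOXM1, which on average were below siControl. The median log2 ratio of the 38 to the siControl mean was 0.41 in replicate 1, 0.63 in replicate 2 and 0.93 in replicate 3, compared with -0.0060, -0.011 and 0.0015 over all genes tested. Replicate 3 over replicate 1 ranged from 1.08 (CDC25B) to 1.96 (FOXM1) with a median of 1.43, against a median of 1.0 over all genes. The siControl libraries were closer to each other than the siPVT1 libraries for these genes. The coefficient of variation (SD over mean) had a median of 3.62% among siControl libraries and 18.5% among siPVT1 libraries. Over all genes tested these medians were 6.90% and 13%. Those genes include ones with far fewer counts, which vary more by counting alone, and no set matched for level was compared. Summed over the 38, the normalized counts were 103511, 97376 and 103304 in siControl and 136762, 152256 and 189569 in siPVT1. These sums were 0.340% to 0.346% of the counts of a siControl library and 0.415%, 0.469% and 0.575% of those of siPVT1 replicates 1, 2 and 3. Replicate 3 also had the largest total count (35059576, compared with 29564562 and 29736725) and the lowest PVT1 level of its group (2062). The part of depth and of the PVT1 level in this spread was not tested. Without siPVT1 replicate 3, the median log2 change of the 38 was 0.49, with 33 higher and 3 lower, and 2 rather than 5 were past both thresholds. Over all genes tested, 5933 were then higher and 6204 lower, compared with 5612 and 5395 with every library.

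A list of 21 genes of S phase entry, which load and fire replication origins and make nucleotides, was set beside them. Of these, 1 was higher (4.76%), 9 were lower (42.9%) and 11 did not pass, against 29.5% higher and 28.4% lower over all genes tested. The median log2 change of the list was -0.44, which was -0.21 without siPVT1 replicate 1 and -0.76 without siPVT1 replicate 3. The lowest was MCM3, a subunit of the replicative helicase, at 2470.2, 2306 and 2493 in siControl and 592, 799.8 and 1526 in siPVT1 (log2 change -1.31, adjusted p = 0.00505). The highest was E2F2, an activator of S phase genes, at 52.4, 41.4 and 43.4 and 43.4, 88.5 and 137 (log2 change 0.98), which did not pass (adjusted p = 0.0510). It passed by DESeq2 (adjusted p = 0.0313), with no filter on low counts (adjusted p = 0.0126) and without siPVT1 replicate 1 (1.29, adjusted p = 0.00224), and was at 0.51 without siPVT1 replicate 3. The list summed to 46198, 43091 and 45870.3 normalized counts in siControl and to 26963, 32126 and 46686 in siPVT1, so that replicate 3 lay just above the siControl libraries while replicates 1 and 2 were below them. In 21 of 21 genes siPVT1 replicate 3 was the highest siPVT1 library. The sum of the 38 mitosis and spindle genes was 2.24, 2.26 and 2.25 times the S phase sum in siControl and 5.07, 4.74 and 4.06 times in siPVT1. The ratio thus lay apart between the groups in every library, but so did the sum of the 38 alone. In replicate 3, where the S phase sum was near siControl, the ratio restates that sum of the 38. Both lists were chosen with earlier results of these data known, so the ratio is a description. Leaving out 1 library moved the number of S phase genes called lower from 9 to 5 (siControl replicate 2), 4 (siPVT1 replicate 2) or 16 (siPVT1 replicate 3). Over all genes tested, the number called lower moved from 5395 to 4862, 4688 or 6204 in the same fits. None of the 18 S phase entry genes with a promoter in the table held a CHR (0 of 18), while 12 held a CCAAT box. Other mitotic lists held the CHR as well. It was found for 14 of 19 other spindle and cytokinesis genes (73.7%, with both motifs for 63.2%) and 6 of 7 condensin genes (85.7%), shares at or above the 71.0% of the mitosis and spindle genes. It was found for 8 of 20 other kinetochore genes (40%) and 4 of 16 APC/C genes (25%).

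**Figure D4:**
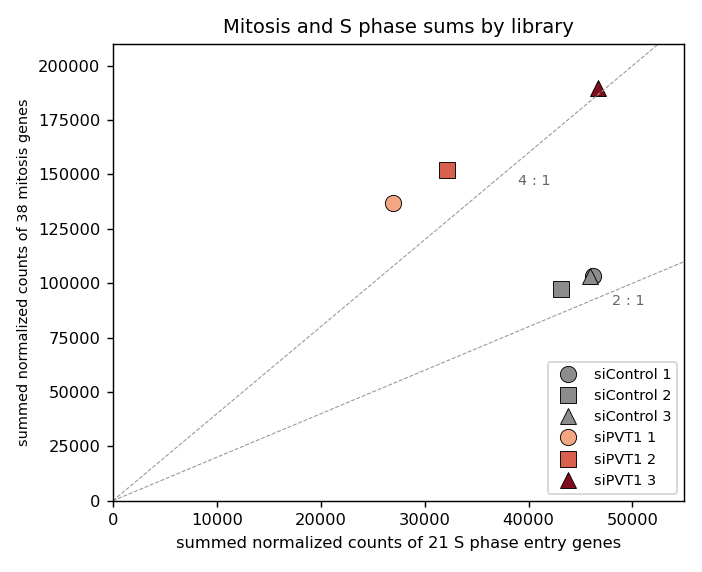
Summed normalized counts of the 38 mitosis and spindle genes (y axis) against those of the 21 S phase entry genes (x axis), 1 mark per library, with dashed lines at ratios of 2 and 4. The 3 siControl libraries sit together near the lower line at ratios of 2.24 to 2.26, and the siPVT1 libraries lie above the upper line at 5.07, 4.74 and 4.06.

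The rest of the mitotic machinery was examined in 7 further lists holding 100 genes, all of which were tested. In total 41 were higher and 20 lower, against shares of 29.5% and 28.4% over all genes tested. Their median log2 change was 0.08, which was 0.21 without siPVT1 replicate 1, 0.14 without siPVT1 replicate 2, -0.0016 without siPVT1 replicate 3 and -0.07 under scaling by the total count, where the median of all genes was -0.15. The list nearest to the 38 was other spindle and cytokinesis genes, with 13 of 20 higher and a median of 0.55. None of those 20 was called lower by edgeR (0, also 0 at an unadjusted p under 0.05 and 0 by DESeq2), although 1 was under scaling by the total count and 1 without siPVT1 replicate 3. CIT (citron kinase), which acts at the midbody, was the highest of them at 1526, 1585 and 1617 in siControl and 4628, 5207 and 6007 in siPVT1 (log2 change 1.74, adjusted p = 4.17e-06), a larger change than that of any of the 38. TUBG1 (gamma-tubulin), the lowest of that list, did not pass (log2 change -0.12, adjusted p = 0.468), except without siPVT1 replicate 3 (-0.31, adjusted p = 0.00220), and was at -0.011 without siPVT1 replicate 1. Among 9 other mitotic kinases and inhibitors 5 were higher and 1 lower (median 0.56), and without siPVT1 replicate 3 the median was 0.34 with 2 lower. PLK4, the kinase of centriole duplication, had a log2 change of 0.84 (adjusted p = 0.00261). PKMYT1, which inhibits CDK1, was the one called lower (-0.81, adjusted p = 0.0217). Its call was lost without siControl replicate 1 or 2 or siPVT1 replicate 2 (adjusted p from 0.0604 to 0.0817), and without siPVT1 replicate 3 the log2 change was -1.22.

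Chromosome structure and attachment genes changed in both directions, as did all genes tested (29.5% higher and 28.4% lower). Of 8 condensin genes 5 were higher and 1 lower (median 0.47), from NCAPD2 at a log2 change of 1.12 (adjusted p = 1.12e-05) to NCAPH2 at -0.58 (adjusted p = 0.0271). Leaving out siControl replicate 1, 2 or 3 left 3 condensin genes called higher, and without siPVT1 replicate 3 the median was 0.23 with 2 lower. The NCAPH2 call was lost without siControl replicate 1, 2 or 3 or siPVT1 replicate 2 (adjusted p from 0.0628 to 0.0846). Of 11 genes of cohesin and its guards 5 were higher and 2 lower (median 0.18), and without siPVT1 replicate 3 the median was 0.07 with 4 lower. The cohesin subunit RAD21, the one that separase cuts, was the highest at a log2 change of 0.87 (adjusted p = 7.38e-06), and STAG1 the lowest at -0.55 (adjusted p = 0.00377). Of the 24 other kinetochore genes 6 were higher, 4 lower and 14 did not pass, so that 25% were higher and 16.7% lower, the first a share near that of all genes tested. Their median was -0.04, which was 0.07 without siPVT1 replicate 1, -0.18 without siPVT1 replicate 3 and -0.18 under scaling by the total count. They ranged from CENPH, a part of the inner kinetochore, at a log2 change of 1.25 (adjusted p = 1.73e-05) to ZW10, which brings dynein to kinetochores, at -1.40 (adjusted p = 5.32e-05). ZW10 was at 1716, 1572 and 1608 in siControl and 506, 590.0 and 749.8 in siPVT1.

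Among 16 APC/C genes, which encode subunits and cofactors of the ligase that CDC20 and UBE2C serve, 4 were higher and 9 lower (median -0.27). These shares were 25% and 56.25%, against 29.5% and 28.4% of all genes tested. UBE2S, the enzyme that extends the ubiquitin chains begun by UBE2C, was the highest at a log2 change of 0.76 (adjusted p = 0.000364). The subunit ANAPC7 was the lowest at -0.94 (adjusted p = 0.00146). Of 12 genes of MuvB, DREAM and their partners, 3 were higher and 3 lower (25% each, median -0.19), shares near those of all genes tested. By DESeq2 3 were higher and 5 lower, and under scaling by the total count 1 and 6 (median -0.34). The median was -0.10 without siPVT1 replicate 1 and -0.34 without siPVT1 replicate 3. E2F5 was the highest of these at a log2 change of 0.47 (adjusted p = 0.00146), and MYBL2, given above, was the lowest. E2F4, the main E2F of the DREAM complex and named after its values were seen, lay just above MYBL2 at -1.32 (adjusted p = 4.67e-06), with 1902, 1872 and 1883 in siControl and 709, 729.9 and 827 in siPVT1. Over the 7 lists, leaving out 1 library moved the number called lower from 20 to 13 (siControl replicate 1 or siPVT1 replicate 2) or 38 (siPVT1 replicate 3). Without siPVT1 replicate 3, 12 of the other kinetochore genes and 8 of the MuvB and DREAM genes were called lower. The number called lower over all genes tested moved as well, from 5395 to 4518 (siControl replicate 1), 4688 (siPVT1 replicate 2) or 6204 (siPVT1 replicate 3).

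**Figure D5:**
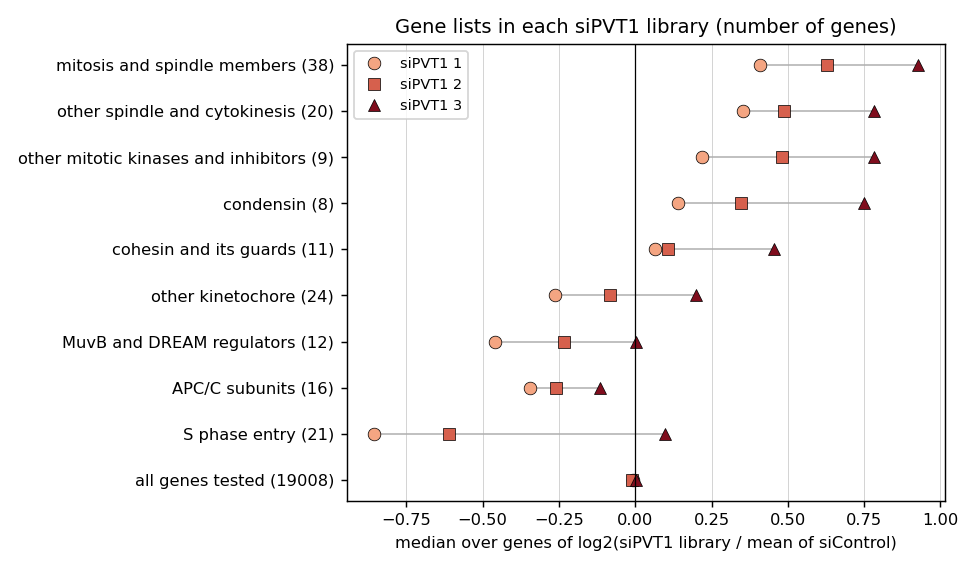
Median over genes of log2 of the normalized count in each siPVT1 library over the siControl mean (x axis), for the 38 mitosis and spindle genes, 7 further lists of mitotic genes, the S phase entry list and all 19008 genes tested. The 38 genes have the highest medians in each library (0.41, 0.63 and 0.93), the marks of all genes tested lie at 0, and replicate 3 is the rightmost mark of every list.

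To compare levels between genes, normalized counts were divided by the length of each gene's MANE Select transcript in GENCODE v44 and given as RPKM, which scales for length and library size. In siControl, UBE2C at 80.2 ± 5.02 and PTTG1 at 79.3 ± 3.20 RPKM (SD, n = 3) were the highest of the 38 and differed from each other by less than their spread. CDC20 at 70.6 ± 2.42 and TPX2 at 64.7 ± 1.97 RPKM followed, and CDC25C at 4.60 ± 0.219 and ESPL1 at 4.68 ± 0.147 RPKM were the lowest, again within their spread of each other. In siPVT1, PTTG1 led at 142 ± 11.3 RPKM, with UBE2C at 131 ± 28.6 RPKM within its spread and ANLN next at 122 ± 14.2 RPKM. Securin thus stood far above separase, whose level was 7.88 ± 1.0 RPKM in siPVT1. By rank among the 38, FOXM1 went from 10 in siControl to 27 in siPVT1 (31.4 ± 0.528 to 23.4 ± 8.17 RPKM), PLK1 from 15 to 29 and CDC25B from 26 to 35. NUF2 went from 28 to 16 (16.2 ± 0.704 to 35.8 ± 5.10 RPKM) and CENPF from 25 to 14. Ranks rest on 1 transcript length per gene, and other isoforms would shift them.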

How the data were processed

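RNA was extracted with Trizol, and libraries were made with a KAPA mRNA HyperPrep kit. Per the labels, the submitters' processing notes name bcl2fastq 2.20.0, STAR 2.7.3a, Salmon 0.14.1 and the build GRCh38.p13. The values the authors deposited are Salmon's estimated counts, summarised by gene symbol, rounded and not normalized; the strand setting is not given in the sources used here, so counts of overlapping genes and close copies are uncertain. Total counts ranged from 28383171 to 35059576 per library.

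From these estimated counts, edgeR 4.0.16 (R 4.3.3) with TMM scaling and its quasi-likelihood test compared siPVT1 with siControl, without further terms, in the 19008 genes that reached 5 normalized counts in 3 or more libraries. P-values were adjusted by Benjamini-Hochberg over those genes, and the standard error is the absolute log2 change divided by the square root of F. A call required an adjusted p under 0.05, and both thresholds also an absolute log2 change of at least 1. Among the 38, values in every library were given for genes past both thresholds and for the gene of smallest p in each role group. They were also given for the gene of smallest absolute change and for CDC25B, PLK1 and SPC25. Of each further list the genes with the highest and the lowest log2 change were named, with PVT1, MYBL2 and E2F4. Outside the 38, values in every library were given for PVT1, MYBL2, E2F4 and some of those extremes (MCM3, E2F2, CIT and ZW10), by no rule fixed beforehand. The 38 genes, the role groups and the further lists were chosen with earlier results of these data known. Lengths came from GENCODE v44 and promoters from RefSeq. The test was checked on simulated data. These held far fewer changed genes than were called here and no replicate set apart from its group, so the check does not cover those features. Alternatives were DESeq2 1.42.0, edgeR with the size factors of DESeq2, total count scaling, filterByExpr, no filter, the replicate number as a block, and each library left out. The study's other experiments were not analysed here.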

Additional observations from a re-analysis of the deposited data

How the results depend on the processing

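The median log2 change of the 38 genes lay between 0.49 and 0.79 with each library left out, and that of PVT1 between -0.80 and -0.62. Total count scaling without TMM moved the median of all genes to -0.15 and the share of calls that were higher from 51.0% to 39.4% (past both thresholds, from 55.1% to 43.8%). Relative to that shift the median of the 38 was still 0.69, with 26 higher, 3 lower and 1 rather than 5 past both thresholds as higher. With each library left out, the number of the 38 called higher ranged from 27 to 35, lower from 1 to 3, and higher past both thresholds from 2 to 6. Of the 7 further lists, 33 to 48 genes were then higher and 13 to 38 lower. Of all genes tested, 4753 to 5933 were higher and 4518 to 6204 lower. S phase entry genes called higher numbered 3 with DESeq2, 3 with no filter on low counts, 0 with scaling by the total count and 0 to 4 with each library left out; those called lower ranged from 4 to 16. No change of direction was found for any of the 38 in any of these alternatives. Over 12 alternatives for each of the 38, the side of the threshold was kept in 421 comparisons, lost in 28 and gained in 7; the cause was not tested.

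Replicate numbers are shared by the groups, but libraries with the same number did not deviate together (correlations of -0.037, 0.029 and 0.0023 for replicates 1, 2 and 3), so the numbers were taken as names only. With the replicate number as a block, 33 of the 38 were higher, 2 lower and 4 higher past both thresholds, the median log2 change of the 38 was 0.67, that of PVT1 was -0.72, and 5296 of all genes were higher and 5150 lower, against 5612 and 5395 without the block. Having 3 libraries per group limits the precision, and counting error was not estimated apart from the spread between libraries.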
